A study of Saccharomyces cerevisiae with 6 samples.

Results

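Adenine was the last base of the nascent RNA at 1850 of the 6858 positions measured on the 35S ribosomal RNA gene of *Saccharomyces cerevisiae*. All positions with base A in the deposited table were taken, whatever their occupancy, and are called A positions here. The other positions end in U (1920), G (1807) or C (1281). Native elongating transcript sequencing (NET-seq) had been performed on RNA polymerase I (Pol I) in triplicate for the *spt4△* strain and for WT, to ask how Spt4 affects transcription elongation.

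NET-seq captures elongating polymerase with its nascent RNA and sequences the 3′ end of that RNA, so each read reports the last base that the enzyme added. Many reads at a position mean that polymerase was found there often, and elongation of Pol I depends on the sequence it transcribes. Pol I makes the 35S precursor, which holds the 18S, 5.8S and 25S rRNAs between the external transcribed spacers ETS1 and ETS2 and the internal transcribed spacers ITS1 and ITS2. Spt4 forms a complex with Spt5 that binds elongating polymerase.

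Both strains carry *ade2-1*, *can1-100*, *his3-11,15*, *leu2-3, 112*, *trp1-1* and *ura3-1*, and both have Rpa135, a large Pol I subunit, tagged with HA and His at its C terminus. The *spt4△* strain has *RPA135-(HA)3-(his)7::URA3mx6* and *spt4△::HIS3*. The WT strain has *RPA135-(HA)3-(His)7::TRP1mx6* and *rpa190Δ::HIS3Mx6*, and its Rpa190 comes from the plasmid pRS315-*RPA190*. The plasmid and the tag's marker therefore differ between the strains along with *SPT4*, and their parts in a difference cannot be told apart. Cells were grown at 30 °C to an OD600 of 0.3. *SPT4* itself lies outside the measured gene, so the deletion could not be checked in these data.

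The A positions that the results turn on are printed as RNA, 5′ to 3′, with 15 bases on each side of the A, which is in capitals. They are from the copy RDN37-2 on the minus strand of chromosome XII (chrXII:460712-467569, build R64). In the reference, the base in the table and the base of the RNA are the same at all 6858 positions, and the other copy, RDN37-1, differs from this one at 0 bases. The 5 A positions with the largest rises in *spt4△*, among those that passed the test below without overlap and with mean occupancy above the median of all positions (105 rpm), are shown first, since 2 of them end in GAGAGA.
Position 106, ETS1, chrXII:467449-467479: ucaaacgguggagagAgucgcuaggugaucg
Position 183, ETS1, chrXII:467372-467402: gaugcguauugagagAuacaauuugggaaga
Position 303, ETS1, chrXII:467252-467282: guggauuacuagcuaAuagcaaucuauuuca
Position 539, ETS1, chrXII:467016-467046: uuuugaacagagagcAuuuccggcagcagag
Position 627, ETS1, chrXII:466928-466958: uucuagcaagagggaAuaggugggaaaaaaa

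The 5 A positions with the largest falls in *spt4△*, under the same conditions, all have CG just before the A.
Position 260, ETS1, chrXII:467295-467325: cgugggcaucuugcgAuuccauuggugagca
Position 279, ETS1, chrXII:467276-467306: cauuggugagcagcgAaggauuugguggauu
Position 2273, 18S, chrXII:465282-465312: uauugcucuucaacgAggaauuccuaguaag
Position 2760, ITS1, chrXII:464795-464825: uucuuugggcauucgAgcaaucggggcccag
Position 6613, 25S, chrXII:460942-460972: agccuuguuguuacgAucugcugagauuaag

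The others shown are the first A of the longest run of A in the gene (11 bases), the A positions with the highest median local ratio in WT in ETS1 and ITS2, and the A positions with the highest mean occupancy in 25S and 18S.
Position 636, ETS1, chrXII:466919-466949: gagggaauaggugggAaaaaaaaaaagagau
Position 102, ETS1, chrXII:467453-467483: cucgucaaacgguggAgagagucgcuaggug
Position 3158, ITS2, chrXII:464397-464427: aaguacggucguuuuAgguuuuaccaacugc
Position 5161, 25S, chrXII:462394-462424: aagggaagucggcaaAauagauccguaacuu
Position 845, 18S, chrXII:466710-466740: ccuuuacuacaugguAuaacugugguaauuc

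Occupancy is given in rpm, a read's share of the library's reads on the gene, scaled so that a library up to the terminator T1 sums to 1000000. The *spt4△* libraries held 307372 to 482329 reads and the WT libraries 5545592 to 10024580 reads, of which 93102 to 135477 and 1911194 to 3440032 lay at A positions. A median A position held 40 to 56 reads in a *spt4△* library and 743.5 to 1293 reads in a WT library. The smallest occupancy taken as detectable, 3 reads, was 6.22 to 9.76 rpm in *spt4△* and 0.299 to 0.541 rpm in WT, which covers counting error only. Across A positions, Spearman's rho was 0.960 to 0.966 between *spt4△* libraries, 0.985 to 0.990 between WT libraries and 0.847 to 0.876 between libraries of the 2 strains. Each WT library was deeper than each *spt4△* library, and the part of depth in the differences below was not tested. With 3 libraries against 3, an exact permutation test cannot give a p under 0.1. Summaries over the A positions are therefore given as values with the overlap of libraries and no p, except for the trinucleotides below.

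The share of reads at A was above the share of A in the gene in both strains, and it was lower in *spt4△* than in WT. The A positions held 28.1%, 29.7% and 30.3% of the reads in the *spt4△* libraries and 34.3%, 34.5% and 34.2% in the WT libraries, where A is 27.0% of the positions. No *spt4△* library reached a WT library, and the means were 29.4% ± 1.14 in *spt4△* and 34.3% ± 0.138 in WT (SD, n = 3 each), a difference of -4.95 percentage points. The share at U was 30.3% ± 0.940 in *spt4△* and 25.3% ± 0.420 in WT, also without overlap, while the shares at G (22.0% and 21.9%) and at C (18.3% and 18.5%) overlapped. The 4 shares sum to the whole library, so a lower share at A is bound to a higher share elsewhere. Position 6399, a U in 25S with the highest mean occupancy of the gene, alone held 3.38% to 4.31% of the reads in *spt4△* and 0.479% to 0.665% in WT. Without it the difference at A was -3.98 points, with 30.5% ± 1.05 in *spt4△* and 34.5% ± 0.162 in WT.

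**Figure D1:**
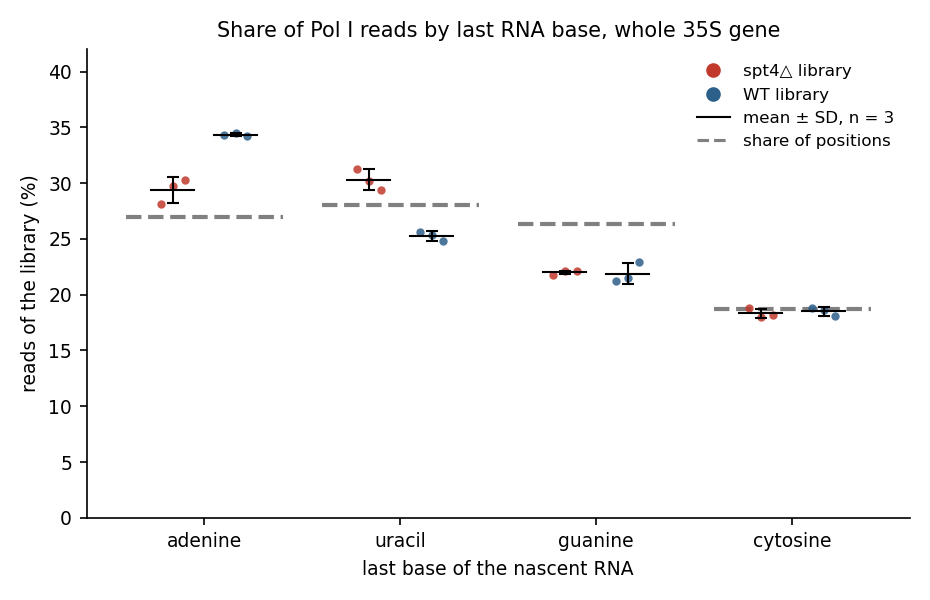
Percent of each library's reads at positions whose last RNA base is adenine, uracil, guanine or cytosine, for 3 spt4△ libraries (red, left) and 3 WT libraries (blue, right), with mean ± SD and, dashed, the percent of positions with that base. The spt4△ libraries sit at 28.1% to 30.3% at adenine, below the WT libraries at 34.2% to 34.5%.

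The lower share at A was found in each region of the gene. In ETS1, where 28.0% of positions are A, they held 29.4%, 34.4% and 35.7% of the region's reads in the *spt4△* libraries and 41.6%, 40.0% and 39.1% in the WT libraries. In ITS1, with the highest share of reads at A, the values were 34.0%, 37.9% and 37.0% in *spt4△* and 44.0%, 44.6% and 43.9% in WT, against 30.5% of positions. In 18S, where A makes up 26.8% of positions, *spt4△* had 30.2%, 31.7% and 32.1% and WT had 36.6%, 36.4% and 36.0%. In these 3 regions both strains had more reads at A than its share of positions, and no *spt4△* library reached a WT library.

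In 25S, which holds 899 of the 1850 A positions, A took 27.2%, 28.6% and 29.2% of the *spt4△* reads and 33.5%, 33.8% and 33.5% of the WT reads (26.5% of positions). The difference was smallest in 5.8S, at 23.0%, 24.5% and 24.4% in *spt4△* and 26.4%, 26.1% and 26.7% in WT (25.9% of positions). In ITS2 the shares were 22.6%, 26.4% and 26.9% in *spt4△* and 29.1%, 30.3% and 30.9% in WT, against 24.1% of positions. ETS2 was the exception among the regions in its level, since A positions there held fewer reads than their 30.8% of positions in both strains, with 10.4%, 13.3% and 15.3% in *spt4△* and 18.4%, 19.9% and 22.8% in WT.

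The share at A was thus lower in *spt4△* without overlap in 7 of 7 regions. Over the shares of all 4 bases in the 7 regions, 12 of 28 (42.9%) were lower in *spt4△* without overlap. In bins of 200 positions, the share at A was lower without overlap in 29 of 34 bins and higher in 0, and in the other 5 the libraries overlapped. Over the 4 bases, 48 of 136 bin shares (35.3%) were lower without overlap. The median difference at A was -4.43 percentage points. The largest was -12.5 points at positions 6201 to 6400, the bin that holds position 6399, with 12.0% ± 0.881 in *spt4△* and 24.5% ± 1.06 in WT. The next was -11.1 points at positions 401 to 600 in ETS1, with 29.5% ± 3.12 in *spt4△* and 40.6% ± 2.34 in WT. The 5 bins with overlap began at positions 1, 2601, 3001, 5201 and 6001, so they included the first bin of ETS1, where A held 38.8% ± 1.85 of the reads in *spt4△* and 39.3% ± 1.07 in WT.

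**Figure D2:**
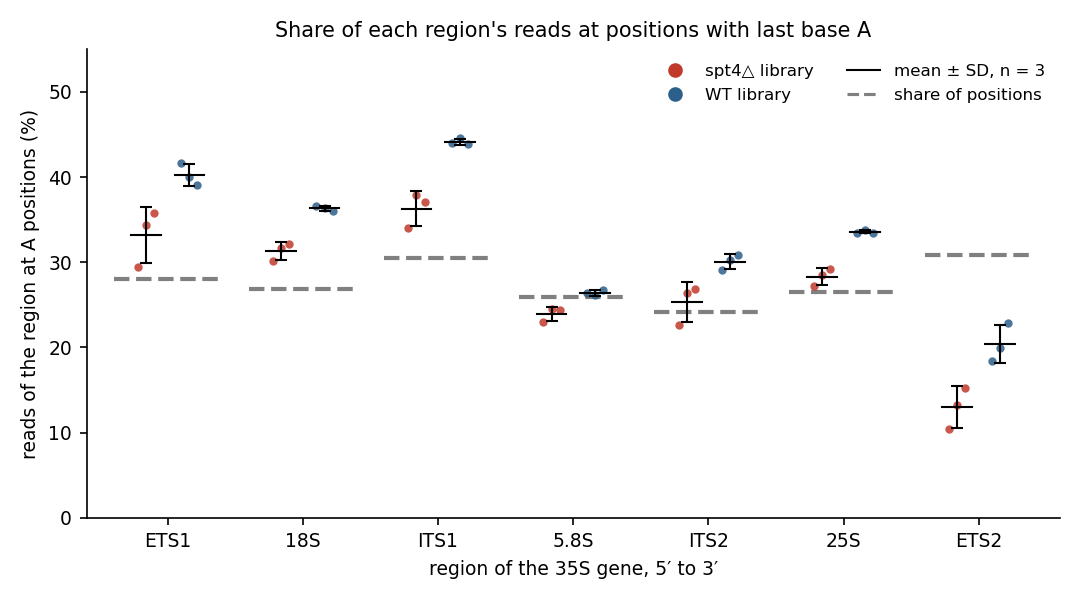
Percent of each region's reads at A positions in 7 regions of the 35S gene from 5′ to 3′, for 3 spt4△ libraries (red, left) and 3 WT libraries (blue, right), with mean ± SD and, dashed, the percent of the region's positions that are A. In every region the spt4△ libraries lie below the WT libraries, and only in ETS2 do both strains lie far below the share of positions.

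To compare positions within their surroundings, each value was divided by the mean of the surrounding 200 positions, 100 on each side, and this quotient is called the local ratio. The median local ratio of A positions was 0.771, 0.844 and 0.872 in the *spt4△* libraries and 0.875, 0.890 and 0.913 in the WT libraries. The *spt4△* libraries were lower without overlap, although the highest of them lay close to the lowest WT library, and with 500 surrounding positions the libraries overlapped (0.757, 0.856 and 0.856 in *spt4△*, 0.851, 0.863 and 0.886 in WT). For all other positions the median was 0.675, 0.673 and 0.673 in *spt4△* and 0.554, 0.572 and 0.596 in WT, so the distance between A and the other bases was smaller in *spt4△*. At U the median was 0.718, 0.707 and 0.713 in *spt4△* and 0.519, 0.538 and 0.551 in WT.

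The difference at A was larger among positions that stand far above their surroundings than at the median. A local ratio over 2 was found at 10.9%, 12.3% and 12.8% of A positions in the *spt4△* libraries and at 16.3%, 16.3% and 15.9% in the WT libraries. A local ratio over 4 was found at 1.89%, 1.84% and 1.95% of A positions in *spt4△* and at 4.27%, 3.84% and 3.89% in WT. Neither pair overlapped. Among the other positions, 1.28% to 1.46% in *spt4△* and 1.42% to 1.68% in WT were over 4, and these overlapped. The mean local ratio at A, on which such high positions weigh more, was 1.10 in *spt4△* and 1.28 in WT.

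By region, the median local ratio of A positions was lower in *spt4△* without overlap in ETS1 (0.347, 0.468 and 0.472 in *spt4△*, against 0.592, 0.587 and 0.575 in WT), in ITS1 (0.252 to 0.314 in *spt4△* and 0.338 to 0.416 in WT) and, narrowly, in 18S (1.01 ± 0.0513 in *spt4△* and 1.08 ± 0.0325 in WT, SD, n = 3 each). In 25S it was 0.877 to 0.976 in *spt4△* and 0.947 to 0.991 in WT, with overlap. The libraries also overlapped in 5.8S, ITS2 and ETS2.

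The level of A positions varied with the base before the A in both strains. After G, the 510 A positions had a median local ratio of 1.01, 1.07 and 1.11 in the *spt4△* libraries and 1.17, 1.17 and 1.29 in the WT libraries, the highest of the 4 previous bases. These positions are 27.6% of the A positions and held 33.6% to 34.7% of the reads at A in *spt4△* and 35.8% to 37.2% in WT. After U (412 positions) the ratio was 0.849 to 0.908 in *spt4△* and 0.906 to 0.930 in WT. After C (332 positions) it was 0.688 to 0.732 in *spt4△* and 0.750 to 0.785 in WT. After A (595 positions) it was 0.602 to 0.747 in *spt4△* and 0.704 to 0.730 in WT. The strains did not overlap after G and after C, where *spt4△* was lower, and overlapped after U and after A. The order of levels, with G first and U second, was the same in both strains, while A and C overlapped in *spt4△*.

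The direction of the strain difference varied with the base after the A. Before another A (595 positions) the median local ratio was 0.790, 0.815 and 0.859 in the *spt4△* libraries and 1.01, 0.981 and 0.991 in the WT libraries. Before C (306 positions) it was 0.643, 0.689 and 0.702 in *spt4△* and 0.602, 0.614 and 0.609 in WT, so that here *spt4△* was the higher strain, again without overlap. The log2 difference before C, 0.16, was about that of the median local ratio over all positions of the gene, 0.15. The mean over these A positions was 0.872 in *spt4△* and 0.840 in WT. Before G (494 positions) the ratio was 0.777 to 0.884 in *spt4△* and 0.886 to 0.976 in WT, and before U (455 positions) 0.849 to 1.00 in *spt4△* and 0.991 to 1.04 in WT. A followed by C took 13.3% to 14.0% of the reads at A in *spt4△* and 11.4% to 11.7% in WT, with 16.5% of the A positions. It was the lowest of the 4 next bases in each library.

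**Figure D3:**
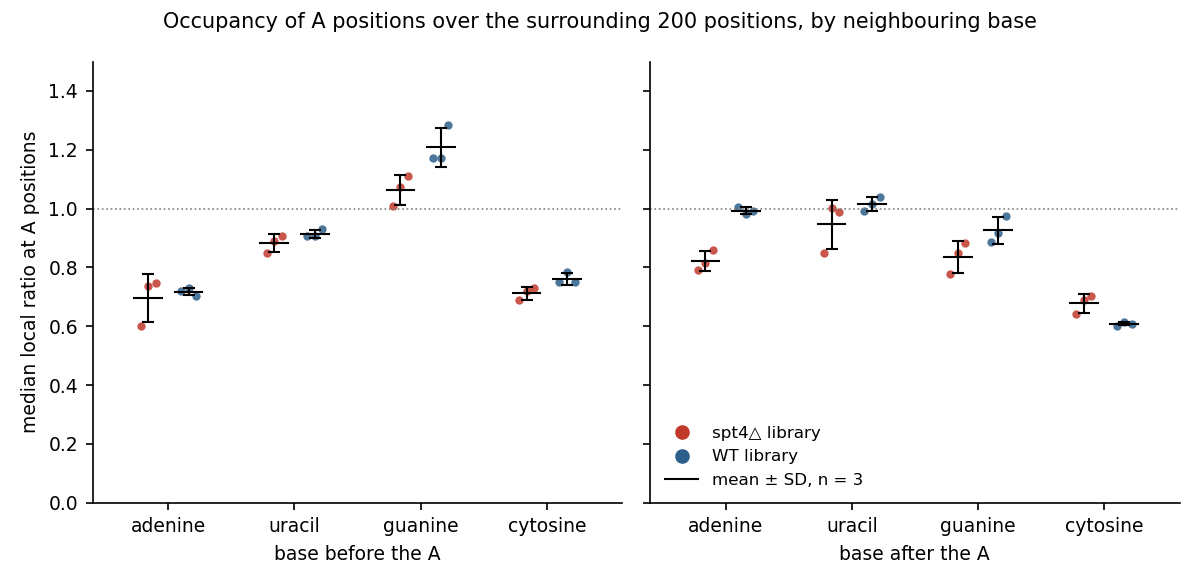
Median local ratio (occupancy over the mean of the surrounding 200 positions) of A positions by the base before the A (left) and after it (right), for 3 spt4△ libraries (red) and 3 WT libraries (blue), with mean ± SD. Guanine before the A gives the highest ratios in both strains, and cytosine after it is the only neighbour at which all spt4△ libraries lie above all WT libraries. The median over all positions of the gene was also higher in spt4△, by about as much on the log2 scale.

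The previous, last and next base were then tested together, with limma on the log2 median local ratio of all 64 trinucleotides and Benjamini-Hochberg adjustment over the 64. Of the 16 with A in the middle, 6 fell in *spt4△* and 2 rose. Over all 64 trinucleotides, 10.9% fell and 45.3% rose, so A stood in the middle of 6 of the 7 that fell. The median log2 difference was -0.09 over the 16 and 0.12 over all 64. In limma's fit the standard error was 0.07 on the log2 scale for each of them, since their spread was pooled. Pooling takes the errors of the 64 trinucleotides as independent, but all come from the same 6 libraries. The adjusted p-values may therefore be too small, and the values per library are the firmer guide.

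AAA fell most, to 0.609, 0.741 and 0.795 in the *spt4△* libraries, against 1.03, 0.970 and 1.01 in the WT libraries (164 positions, log2 difference -0.50, limma adjusted p = 1.52e-10). GAA was 1.04, 1.09 and 1.08 in *spt4△* and 1.32, 1.34 and 1.36 in WT (183 positions, -0.32, limma adjusted p = 2.92e-05). GAU, the trinucleotide with A in the middle that had the highest mean of 3 libraries in both strains, was at 1.16 ± 0.112 in *spt4△* and 1.43 ± 0.0693 in WT (SD, n = 3 each). Its log2 difference over 120 positions was -0.30 (limma adjusted p = 9.53e-05). CAG was 0.717, 0.714 and 0.690 in *spt4△* and 0.825, 0.890 and 0.904 in WT (95 positions, -0.30, limma adjusted p = 9.35e-05). In these 4 no *spt4△* library reached a WT library.

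AAG (-0.20, limma adjusted p = 0.0127) and UAA (-0.16, adjusted p = 0.0412) fell by less. The call for UAA was lost in 8 of its 14 refits. AAC rose, to 0.557, 0.659 and 0.588 in the *spt4△* libraries, against 0.460, 0.492 and 0.479 in the WT libraries (123 positions, 0.33, limma adjusted p = 1.99e-05). AAC had the lowest ratio of the 16 in WT. The mean over its positions differed less between the strains, at 0.690 in *spt4△* and 0.666 in WT. CAU, at 0.830, 0.898 and 0.894 in *spt4△* and 0.773, 0.773 and 0.744 in WT, rose at the median (0.20, limma adjusted p = 0.0127), but the mean over its 86 positions was lower in *spt4△* (1.07, against 1.19 in WT). The other 8 passed in neither direction, with log2 differences from -0.14 (CAA and GAG) to 0.11 (UAC).

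In runs of A, the strain difference varied with the place in the run. The gene holds 824 single A, 313 runs of 2, 89 of 3, 20 of 4, 6 of 5, 2 of 6 and 1 of 11. Single A had a median local ratio of 0.860, 0.919 and 0.946 in the *spt4△* libraries and 0.941, 0.960 and 1.02 in the WT libraries, with overlap. In runs of 3, the first A was at 0.817, 0.830 and 0.881 in *spt4△* and 1.05, 1.07 and 1.11 in WT, while the last A was at 0.602, 0.716 and 0.648 in *spt4△* and 0.487, 0.541 and 0.502 in WT. Both comparisons were without overlap, and they went in opposite directions. At the last A of runs of 3 the means were 0.929 in *spt4△* and 0.863 in WT. For the last A of all runs of 2 or more the medians overlapped, at 0.599 to 0.734 in *spt4△* and 0.657 to 0.669 in WT. The mean over these was lower in *spt4△* (0.888, against 0.945 in WT). Within a run of 4, the last A took 16.5%, 17.5% and 17.7% of the run's reads in *spt4△* and 12.7%, 13.2% and 14.0% in WT, and the second A took 25.8% to 27.4% in *spt4△* and 29.1% to 30.5% in WT.

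The inner A of runs of 5 or more, 35 positions in 9 runs, had the largest difference among the places in a run. Their median local ratio was 0.520 ± 0.0291 in *spt4△* and 1.11 ± 0.125 in WT (SD, n = 3 each), without overlap and with a log2 difference of -1.09. The first A of these runs overlapped between strains (0.632 to 0.801 in *spt4△* and 0.628 to 0.725 in WT). The last A was at 0.527, 0.537 and 0.771 in *spt4△* and 0.394, 0.381 and 0.344 in WT. At 2 positions after a single A, which can hold any base, the median ratio was 0.935, 0.864 and 0.901 in *spt4△* and 0.682, 0.744 and 0.760 in WT, without overlap. This was not particular to that place, since 9 of the 10 places within 5 bases of a single A, all but 2 bases before it, were higher in *spt4△* without overlap. At 4 bases after, for example, it was 0.802 ± 0.0151 in *spt4△* and 0.670 ± 0.0376 in WT (SD, n = 3 each). The median over all positions of the gene was likewise higher in *spt4△* without overlap, at 0.700 to 0.717 in *spt4△* and 0.618 to 0.661 in WT. The higher values are therefore not particular to the surroundings of a single A.

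A positions were next grouped by the number of A among the next 5 bases, a grouping chosen after the values had been seen. With 0 such A (387 positions) the median local ratio was 0.742, 0.847 and 0.858 in the *spt4△* libraries and 0.719, 0.753 and 0.746 in the WT libraries. With 2 (544 positions) it was 0.819, 0.841 and 0.898 in *spt4△* and 1.03, 1.01 and 1.03 in WT. With 4 or 5 (46 positions, many of them in the same runs) it was 0.656, 0.668 and 0.616 in *spt4△* and 1.26, 1.13 and 1.34 in WT. The log2 difference went 0.14, -0.01, -0.26, -0.39 and -0.94 over 0, 1, 2, 3 and 4 or more A, and the libraries did not overlap from 2 on. For the median local ratio over all positions of the gene the log2 difference was 0.15.

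Among the positions with another last base, the same grouping gave log2 differences of 0.47, 0.29, 0.07, -0.03 and -0.09. A downstream therefore went with a lower difference there too, from a higher starting level. The level was higher with more G among the previous 5 bases in both strains. The median local ratio of A positions with 0 such G was 0.577 to 0.655 in *spt4△* and 0.620 to 0.684 in WT, and with 4 or 5 it was 1.69, 1.77 and 1.84 in *spt4△* and 1.51, 1.41 and 1.62 in WT. The libraries overlapped at 0 to 3 G, and *spt4△* was higher at 4 or 5 (46 positions, log2 difference 0.22).

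**Figure D4:**
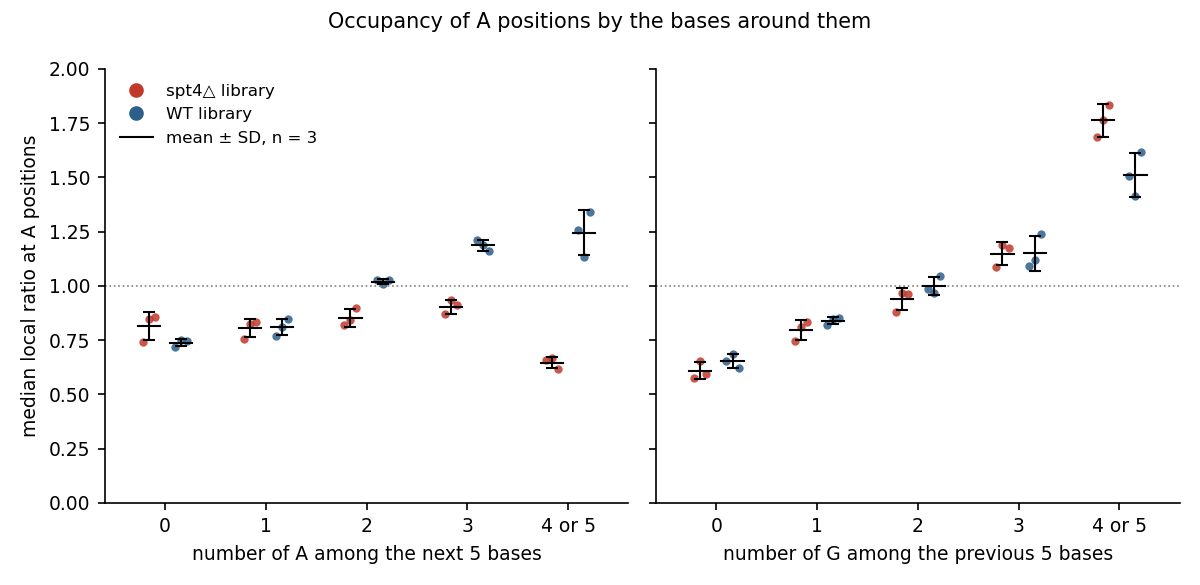
Median local ratio of A positions by the number of A among the next 5 bases (left) and the number of G among the previous 5 bases (right), for 3 spt4△ libraries (red) and 3 WT libraries (blue), with mean ± SD. With more A downstream the WT libraries climb and the spt4△ libraries stay under 1, ending at 0.616 to 0.668 in spt4△ against 1.13 to 1.34 in WT, whereas both strains climb with more G upstream.

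A limma fit of log2(rpm + 1) over the 6848 positions with a read in any library then gave a call at each position, where the p after Benjamini-Hochberg adjustment over all of them lay under 0.05. Of the 1847 A positions tested, 595 (32.2%) fell in *spt4△* and 309 (16.7%) rose, where over all positions 21% fell and 25.2% rose. At 698 A positions (37.8%) all *spt4△* libraries lay below all WT libraries, and at 382 (20.7%) above them, where over all positions 25.9% were lower and 30.7% higher without overlap. The median log2 difference was -0.16 at A positions and 0.08 over all positions. At U, by contrast, 672 of 1914 positions rose and 270 fell. Scaling each library to its median position moved the median over all positions to -0.05 and gave 715 falls and 234 rises at A.

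Falls at A were most frequent in 5.8S, ITS2 and 25S. In 25S, 324 A positions fell and 108 rose of 899, where 25.5% of all positions in 25S fell and 19.6% rose. In 5.8S, 21 fell and 2 rose of 41, where 38.5% of all positions in 5.8S fell and 14.1% rose. In ITS2, 23 fell and 7 rose of 56, where 24.2% of all positions fell and 17.7% rose. In 18S, 130 of 482 fell and 102 rose, where of all positions in 18S 15.7% fell and 34.1% rose. In ETS1, rises outnumbered falls at A (59 and 52 of 195), as they did over all positions there (255 and 104 of 699). ITS1 had 31 falls and 23 rises of 109 at A, beside 15.6% falls and 24.7% rises over all its positions. ETS2 had 14 falls and 8 rises of 65 at A, beside 8.13% falls and 18.7% rises over all its positions. The median size of a called change was larger in the spacers: it was -1.57 for falls and 1.48 for rises in ETS1, and -0.82 for falls and 0.59 for rises in 25S, on the log2 scale. This was not particular to A. Over all positions the values were -1.60 and 1.75 in ETS1, and -0.81 and 0.66 in 25S.

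By neighbour, 209 of the 510 A positions after G fell (41.0%), compared with 92 of 332 after C (27.7%), 118 of 411 after U (28.7%) and 176 of 593 after A (29.7%). GAU had the largest share of falls among the 16 trinucleotides, with 63 of 120, followed by GAA with 80 of 183. Before C, 84 of 306 rose (27.5%) and 60 fell (19.6%), close to the shares over all positions. Before A there were 200 falls (33.7%) and 55 rises (9.27%) of 593. The share of falls was about as large before U (161 of 455, 35.4%) and before G (174 of 493, 35.3%). Rises numbered 89 (19.6%) before U and 81 (16.4%) before G.

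The 2 bases before the A were listed for all 16 pairs after it had been seen that the largest falls shared CG. The 83 A positions after CG had a median local ratio of 0.850, 1.03 and 1.02 in the *spt4△* libraries and 1.47, 1.43 and 1.42 in the WT libraries. This was the highest level of the 16 pairs in 2 of the 3 WT libraries and the largest difference of the 16, at -0.58 on the log2 scale. Of these 83 positions, 57 (68.7%) fell and 2 (2.41%) rose, where 32.2% of all A positions fell and 16.7% rose. Over all positions of the gene 21% fell and 25.2% rose. After GG, where the level was about as high (1.28 ± 0.0876 in *spt4△* and 1.36 ± 0.122 in WT, 139 positions), the libraries overlapped. After AG (145 positions) they also overlapped, at 1.05 to 1.10 in *spt4△* and 0.931 to 1.08 in WT. When CG was followed by another base than A, 84 of 214 positions (39.3%) fell and 33 (15.4%) rose, with a log2 difference of -0.12 in the median local ratio. CG stands before 4.33% of all positions.

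GAGAG stands before 6 A positions, and this group too was picked from the largest changes. At 5 of them occupancy rose, with log2 differences of 4.24 at position 106, 3.30 at position 183 and 3.64 at position 557 in ETS1, 2.91 at position 2666 in ITS1 and, with 190 rpm in *spt4△* and 82.0 rpm in WT, also at position 3589 in 25S (limma adjusted p from 1.66e-08 to 6.36e-05). The sixth, position 6702 in ETS2, averaged 4.38 rpm in *spt4△* and 3.94 rpm in WT, under the *spt4△* limit of detection. GAGAG before another last base was found at 12 positions, of which 11 rose and 0 fell. Over all positions 25.2% rose and 21% fell, and over all positions in ETS1 36.5% rose and 14.9% fell. Some of these positions lie in the same repeats as the A positions, so the counts are not independent. Among all positions, 0.262% follow GAGAG.

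Position 106 of ETS1 was the A position with the highest median local ratio over the 3 *spt4△* libraries. It had 1609.5, 1909.7 and 2008 rpm in the *spt4△* libraries and 83.8, 90.0 and 117 rpm in the WT libraries (log2 difference 4.24 ± 0.14, SE, limma adjusted p = 1.66e-08). In *spt4△* it stood 21.1 to 25.6 times above its surroundings, and in WT 2.11 to 2.21 times. The A at position 102, 4 bases upstream in the same sequence, had 1444, 1224 and 1321 rpm in *spt4△* and 742, 940 and 1460.4 rpm in WT. Its libraries overlapped, with a log2 difference of 0.40 ± 0.21 (limma adjusted p = 0.149), which lay between 0.18 and 0.67 with 1 library left out, and it passed without WT replicate 3 (0.67, limma adjusted p = 0.0142). Over the 3 WT libraries it had the highest median local ratio of all A positions (21.7 to 30.4 in single libraries), while in *spt4△* its ratio was 15.8 to 18.9. Position 106 was the higher of the pair in each *spt4△* library and the lower in each WT library.

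The same change in order was found at a second pair of A positions in ETS1, 5 bases apart. At position 627, occupancy was 606, 941 and 963 rpm in the *spt4△* libraries and 44.5, 58.6 and 46.3 rpm in the WT libraries (log2 difference 4.02 ± 0.18, limma adjusted p = 9.75e-08). At position 622, it was 102, 107 and 111 rpm in *spt4△* and 285, 422 and 543 rpm in WT (-1.91 ± 0.19, limma adjusted p = 2.29e-05). No library overlapped at either position, and the downstream A was the higher of the pair in each *spt4△* library and the lower in each WT library. Positions 106 and 627 were among the 5 A positions with the highest median local ratio in *spt4△*, and 622 among those in WT.

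Position 539 rose most among the A positions named for the size of their change, with 214, 182 and 251 rpm in *spt4△* and 7.38, 9.20 and 10.4 rpm in WT (log2 difference 4.44 ± 0.23, limma adjusted p = 2.50e-07). Position 183 had 514, 554 and 531 rpm in *spt4△* and 33.9, 48.5 and 91.8 rpm in WT (3.30 ± 0.27). Position 303 had 162, 194 and 257 rpm in *spt4△* and 22.5, 16.6 and 24.9 rpm in WT (3.19 ± 0.23). All 5 of these rises were in ETS1, and their median local ratio ranged from 3.09 to 25.5 in *spt4△* and from 0.213 to 2.11 in WT.

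Position 279 fell most among the A positions named for the size of their change, with 29.0, 45.6 and 32.5 rpm in *spt4△* (10 to 20 reads) and 404, 471 and 431 rpm in WT (log2 difference -3.59 ± 0.17, limma adjusted p = 1.50e-07). Position 260, upstream of it, had 87.1, 107 and 111 rpm in *spt4△* and 565, 390.3 and 368 rpm in WT (-2.09 ± 0.17). The other 3 of these falls lie in 18S, ITS1 and 25S. Position 2273 had 118, 132 and 84.6 rpm in *spt4△* and 461, 548 and 549 rpm in WT (-2.23 ± 0.16), position 2760 had 41.5, 38.7 and 55.3 rpm in *spt4△* and 175, 152 and 198 rpm in WT (-1.94 ± 0.18), and position 6613 had 39.4, 47.9 and 39.1 rpm in *spt4△* and 205, 188 and 217 rpm in WT (-2.25 ± 0.16). The choice of these 5 required libraries without overlap, so the lack of overlap is not a result.

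**Figure D5:**
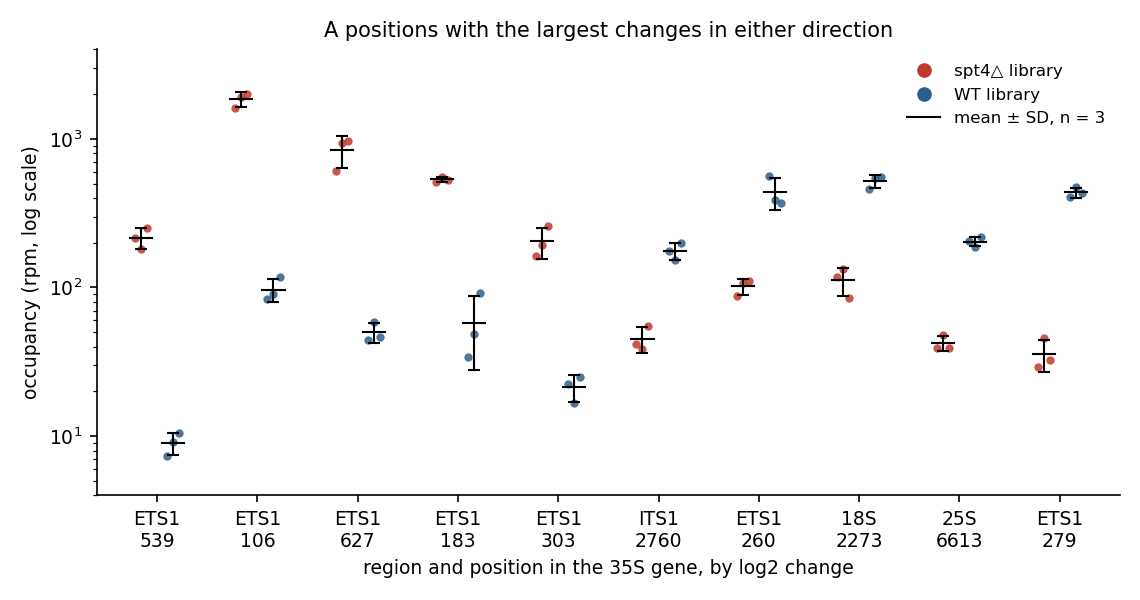
Occupancy (rpm, log axis) of the 5 A positions with the largest rises and the 5 with the largest falls among those with mean occupancy above the median position, in order of their log2 difference, for 3 spt4△ libraries (red, left) and 3 WT libraries (blue, right), with mean ± SD. A call and libraries without overlap between the strains were conditions of the choice. All 5 rises lie in ETS1.

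The A position with the highest mean occupancy in each region was lower in *spt4△* in 5 of the 7 regions. Position 5161 in 25S had 711, 727 and 791 rpm in *spt4△* and 1498, 1609.9 and 1338 rpm in WT (log2 difference -0.99 ± 0.13, limma adjusted p = 1.32e-04). Position 2970 in 5.8S had 427, 449 and 475 rpm in *spt4△* and 1367, 682 and 871 rpm in WT (-1.05 ± 0.21, limma adjusted p = 0.00164). Position 3158 in ITS2 had 276, 276 and 325 rpm in *spt4△* and 579, 606 and 668 rpm in WT (-1.08 ± 0.12, limma adjusted p = 3.30e-05). At position 2571 in ITS1 the log2 difference was -1.35 ± 0.18, and at position 6680 in ETS2 it was -1.38 ± 0.21.

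The tops of 18S and ETS1 did not pass. Position 845 in 18S had 1112, 1388 and 1367 rpm in *spt4△* and 1078, 1021 and 1018 rpm in WT, without overlap but with a log2 difference of only 0.30 ± 0.14 (limma adjusted p = 0.0936). It passed without *spt4△* replicate 1 (0.41, limma adjusted p = 0.0317). Position 102 in ETS1 is given above. The other A positions named for a high local ratio were 405 (-0.57 ± 0.18, adjusted p = 0.0257, a call that was lost without *spt4△* replicate 1, at -0.34, and without WT replicate 1 or 2, at -0.49 and -0.55) and 3136 (-0.61 ± 0.12) for WT, and 2666 (2.91 ± 0.24) and 2710 (1.19 ± 0.16) for *spt4△*.

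The run of 11 A at positions 636 to 646 of ETS1 holds 9 of the 35 inner positions above, and its last A was lower in *spt4△*, unlike the median over the last A of the 9 runs. At its first A, position 636, occupancy was 124, 166 and 186 rpm in the *spt4△* libraries and 156, 147 and 234 rpm in the WT libraries, with overlap (log2 difference -0.16 ± 0.20, limma adjusted p = 0.523). The third A, position 638, overlapped as well, at 53.9, 45.6 and 52.1 rpm in *spt4△* and 50.9, 49.8 and 76.4 rpm in WT. At each of the other 9 the highest *spt4△* library lay below the lowest WT library, and 8 of them passed the test. Position 645 had 31.1, 25.1 and 42.3 rpm in *spt4△* and 97.0, 86.2 and 104 rpm in WT (-1.54 ± 0.23, adjusted p = 2.85e-04), and the last A, position 646, had 60.1, 34.2 and 42.3 rpm in *spt4△* and 101, 92.9 and 110.4 rpm in WT (-1.17 ± 0.22, adjusted p = 0.00136). The *spt4△* values in the run past its first A rest on 10 to 29 reads, and the calls at positions 643 and 644 were lost without some single libraries. These 11 positions are neighbours and are not independent.

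The A positions with the highest local ratio, 185 in each strain or 10% of A positions, had 102 members in common. The last inside and the first outside both had a median ratio of 2.13 in *spt4△*, and 2.56 and 2.55 in WT. The local ratio chose these positions, so what follows is a description. G stood before the A at 43.2% of the *spt4△* positions and 44.9% of the WT positions, against 27.6% of all A positions. C followed the A at 9.73% of the *spt4△* positions and 7.03% of the WT positions, against 16.5% of all. At 2 bases after the A, another A stood at 40.0% of the *spt4△* positions and 38.9% of the WT positions, against 26.4% of all. In these features the strains were alike in direction.

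They differed at many of the other places, on both sides of the A, of which these are examples. At 4 bases after the A, A stood at 24.3% of the *spt4△* positions and 33.5% of the WT positions, where it stands at 27.4% of all A positions. At 5 bases after, the shares were 25.9% in *spt4△* and 34.6% in WT. The sets chosen in single libraries gave 24.3% to 26.5% in *spt4△* and 33.5% to 34.1% in WT at 4 bases after the A. At 2 bases before the A, C stood at 11.9% of the *spt4△* positions and 23.2% of the WT positions, against 19.0% of all. In the sets chosen in single libraries, G stood 4 bases before the A at 31.7% ± 1.36 in *spt4△* and 25.8% ± 0.624 in WT, and U stood 5 bases before it at 18.9% ± 1.43 in *spt4△* and 26.5% ± 0.541 in WT (SD, n = 3 each), both without overlap. The sets overlap by 102 positions, so these shares are not independent.

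At the low end, 39 to 51 A positions had no read in a *spt4△* library and 3 to 7 in a WT library. Positions 8 in ETS1, 2500 (the last base of 18S) and 2501 (the first base of ITS1) were at 0 in all 6 libraries and were not tested. Under 3 reads, the smallest occupancy taken as detectable, there were 96 to 138 A positions in a *spt4△* library and 8 to 14 in a WT library. Such positions stayed in the test when any library held a read, so a fall to this level could still be called.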

How the data were processed

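NET-seq libraries of Pol I from 3 *spt4△* and 3 WT cultures were analysed, grouped by the genotype given for each sample. The columns of values were matched to the samples by their titles. The deposited values are in RPM: the authors removed duplicates by molecular identifier, trimmed linkers with cutadapt 1.12, aligned reads with STAR 2.7.1a to build R64, counted read ends per position, added both copies of the gene and scaled each library to its reads as far as T1. The deposited means, intervals, fold ratios and p-values of the authors' own comparison were not used, and 0 columns of single libraries were left out. The step between values was taken as 1 read: 41137 of 41148 values (99.97%) were whole within 0.001 of a read.

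Local ratios and shares were computed with Python 3.11.15 and numpy 2.4.6. Tests used limma 3.58.1 in R 4.3.3 with strain as the only term, lmFit and eBayes, with a trend for single positions on log2(rpm + 1) and without one for the 64 trinucleotides. The fits were tested on simulated data with independent errors, which leaves errors shared within a library untested. Refits on the recovered reads used edgeR 4.0.16 and DESeq2 1.42.0. Other alternatives changed the pseudocount (0.1 or 10), the surrounding positions (50 or 500, or within the region), the summary (mean or sums), the scaling, a minimum of 10 rpm, positions within 10 of mature ends, the top 0.5%, a replicate block, and 1 library in turn. Leaving out the position with the highest mean occupancy, and the alternatives for regions and single libraries for the highest A positions, were added after seeing the data.

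Positions were named by rule. They are the 5 A positions with the highest median local ratio in each strain, the 5 largest called changes in each direction (libraries without overlap, mean above the median of all positions, 105 rpm), the highest A position of each region, the longest run of A and the A positions at 0 in all libraries. Members and lists were chosen with earlier results of these data known. Positions of a gene are not replicates, and libraries are.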

Additional observations from a re-analysis of the deposited data

How the results depend on the processing

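The lower share of reads at A kept its direction in every alternative run, between -5.50 (mean of the regions' shares weighted by each region's number of positions) and -3.98 percentage points, and between -5.41 and -4.31 with 1 library left out. It was found in 7 of 7 regions without the top 0.5% of positions, without mature ends and with 1 library left out. The median local ratio at A was -0.11 on the log2 scale, and moved to -0.22 both as a mean over positions and as a ratio of sums. With 500 surrounding positions it was -0.077, with overlap of the strains. With 1 library left out it lay between -0.15 and -0.06. A positions that rose numbered 234 (scaled to the median position) to 369 (unadjusted p), and 218 to 341 with 1 library left out. Those that fell numbered 581 to 715, and 474 to 626. edgeR on the recovered reads gave 333 rises and 600 falls, and DESeq2 gave 268 and 646. The replicate numbers do not pair the libraries (correlations of -0.05, 0.01 and 0.02 for the same number). A replicate block gave 314 rises and 614 falls, and moved no trinucleotide count.

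Of the trinucleotides with A in the middle, 1 instead of 2 rose with 500 surrounding positions, with the mean, with sums and with windows within the region, and 1 to 3 with 1 library left out. Falls numbered 10 with the mean, where the report has 6, and 5 to 7 with 1 library left out. AAA, GAA, CAG and GAU kept their direction and call in every refit. CAU turned to -0.15 with the mean and -0.12 with sums, both past the threshold. AAU turned to -0.0072 with the mean and -0.13 with sums, UAC to -0.00012 and -0.020, UAU to -0.11 and -0.091 (and to -0.13 with 50 surrounding positions), and CAC to -0.071 with sums. With 1 library left out, GAC ranged from -0.0096 to 0.15, UAG from -0.080 to 0.010, UAU from -0.032 to 0.10, position 636 from -0.29 to 0.047 and position 638 from -0.30 to 0.0020. The cause was not tested. Over the named positions, 472 of 495 refits kept direction and call. Among the highest A positions, the difference in A at 4 bases downstream, -8.24 points, was -6.88 points for the highest 5% and -4.15 points for the highest 20%, and -8.67 to -7.59 points with 1 library left out. Depth limits single positions in *spt4△*, where 3 reads equal 6.22 to 9.76 rpm.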
